A study of Rattus norvegicus with 5 samples.

Results

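The genes described here are 5 markers of the basal layer of skin epithelium: the keratins Krt5, Krt14 and Krt15 and the integrin chains Itga6 and Itgb4. They were taken by symbol from the 30017 gene symbols of 5 libraries of rat skin that were sequenced cell by cell, and each symbol matched 1 gene row (Krt5 ENSRNOG00000050420, Krt14 ENSRNOG00000003899, Krt15 ENSRNOG00000014099, Itga6 ENSRNOG00000001518 and Itgb4 ENSRNOG00000005580). Their levels were read mainly in 19677 keratinocytes of 42749 cells kept in all. The libraries were control skin and skin taken 7, 14, 28 and 60 d after irradiation, 1 library each. The animals were young male Sprague-Dawley rats with no transgene. A shielded field of buttock skin received a single dose from an electron beam in the groups at 7, 14 and 28 d, and unexposed skin gave the control library. No description of the 60 d library was found in the study's text, and the labels give no dose, so whether it shares the experiment of the others is not known. The labels do not say whether a library came from 1 animal or from several.

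Keratins are the intermediate filament proteins of epithelia and assemble as pairs of a type II and a type I chain. Krt5 is the type II keratin of basal keratinocytes and Krt14 its usual type I partner, while Krt15 is a type I keratin of basal cells that is also known as a marker of the hair follicle bulge. Itga6 and Itgb4 encode the α6 and β4 chains, which form the laminin receptor of the hemidesmosome, the junction that ties the keratin network of basal cells to the basement membrane. Both integrin chains are also known from Schwann cells and from vascular endothelium, so the cell class matters for reading them.

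Of the 5 genes, only Krt5 had an entry in the promoter table used here. Its 250 bases before the annotated start are shown because Krt5 is the reference against which Krt15 is read below (RefSeq, build GRCr8, chr7:134730570-134730819, minus strand, written 5′ to 3′ along the gene).
Krt5: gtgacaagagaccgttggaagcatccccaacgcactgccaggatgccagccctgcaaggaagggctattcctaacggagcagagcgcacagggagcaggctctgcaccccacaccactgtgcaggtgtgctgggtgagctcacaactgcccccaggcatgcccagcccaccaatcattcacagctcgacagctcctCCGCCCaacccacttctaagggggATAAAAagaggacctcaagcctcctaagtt
Capitals mark 2 matches among 5 searched motifs. A motif like the TATA box, with the letters ATAAAA, begins 30 bases before the start on the gene's strand and occurs on either strand in 18.6% of 33469 regions of the same length. The GC box letters GGGCGG match on the opposite strand with their run beginning 54 bases before the start, and occur in 30.5% of these regions. The TATA box letters TATAAA had no match in this window, nor had the AP-1 letters TGANTCA or the AP-2 letters GCCNNNGGC (they occur in 12.9%, 6.34% and 12.6% of regions). The build of the sequence differs from that of the deposited counts, Rnor_6.0, and these matches are a description of the letters only.

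Each deposited value is a count of unique molecular identifiers (UMIs), that is, of captured RNA molecules read at their 3′ end, for 1 gene in 1 cell barcode. For each library the UMIs of all cells of a class were added up and expressed as counts per 1e+06 UMIs of those cells (CPM). Because each group is 1 library, no difference between groups could be tested, no p-value is given, and irradiation cannot be told apart from the animal, the piece of skin, the dissociation or the library preparation. Intervals are 95% and exact (Poisson for CPM, conditional binomial for ratios, Clopper-Pearson for shares) and cover counting error only. In keratinocytes a gene is described as past 2-fold or not, beside the share of all tested genes past 2-fold in the same comparison. Other classes have no such share. Tested genes had at least 50 CPM in either library, and all 5 genes passed this filter at each time.

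The libraries held 70073362 to 139566348 UMIs. Keratinocytes were named from 13 of 37 clusters with markers that did not include the 5 genes, and numbered 4866 in control, 1838 after 7 d, 2045 after 14 d, 4409 after 28 d and 6519 after 60 d. Their median depth was 10556 UMIs in control, 11638 after 7 d, 24781 after 14 d, 11438 after 28 d and 15604 after 60 d. Many clusters came mostly from 1 library: 6 of the 13 keratinocyte clusters and 13 of the 21 keratinocyte sub-clusters drew over 70% of their cells from 1 library. In all, 257 barcode sequences occurred in more than 1 library, 44 of them among keratinocytes. In keratinocytes the summed level of 6 fibroblast markers was 1252 CPM in control and lay between 13.2 and 2071 CPM after irradiation. The summed level of 7 neutrophil markers reached 15145 CPM at 14 d, against 68.8 CPM in control; 2 of these markers, S100a8 and S100a9, are also known from injured epidermis. The part of other cells' RNA in the results below was tested only through the levels read in T and NK cells.

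The comparison asked how the basal program of keratinocytes differed at each time after irradiation from that of control skin, and whether the 3 keratins moved together. They did not. At 14 d Krt15 was 20.5-fold lower than in control while Krt5 was 1.67-fold and Krt14 1.45-fold higher. At 28 and 60 d Krt15 stayed 2.48-fold and 1.65-fold lower than in control, with Krt5 1.99-fold and 1.82-fold higher. Itgb4 was 3.48-fold higher at 7 d, and Itga6 was 2.20-fold lower at 14 d.

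Krt5 had 4468 CPM in control keratinocytes, 5985 after 7 d, 7451 after 14 d, 8881 after 28 d and 8129 after 60 d. Each irradiated library was above control, and the 28 d library was highest. At 28 d the log2 ratio to control was 0.99, just short of 2-fold, and Krt5 ranked 116th from the top of 2403 tested genes. The gene was read in nearly every keratinocyte, from 98.2% of cells in control to 99.7% at 60 d.

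Krt14, its type I partner, had 1079 CPM in control, 894 after 7 d, 1564 after 14 d, 2339 after 28 d and 1793 after 60 d. It was thus below control at 7 d and above it at the 3 later times, and past 2-fold only at 28 d, where it was 2.17-fold higher. Over 14 settings of the processing, its log2 ratio at 28 d lay between 0.22 and 1.33, so it was not past 2-fold in all. The ranges were 0.14 to 1.16 at 14 d and 0.062 to 1.12 at 60 d. The 2 partner keratins did not keep a fixed proportion: Krt14 UMIs were 0.149 of Krt5 UMIs at 7 d, against 0.242 in control, and lay between 0.210 and 0.263 of Krt5 at the later times. Krt14 has close paralogs among the type I keratins (Krt16 and Krt17 in particular), so reads that the authors' counting could not place may be missing or split, and the level of Krt14 relative to other genes is uncertain.

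Krt15 had 5880 CPM in control, 6484 after 7 d, 287 after 14 d, 2371 after 28 d and 3553 after 60 d. The 14 d library stood far below all others and the 7 d and control libraries were the highest. The 14 d library also had the most barcodes over the limit of mitochondrial UMIs, 25.5%, against 6.4% in control, with 7.44%, 14.1% and 11.3% at 7, 28 and 60 d, and the part of this in the low values was not tested. At 14 d the log2 ratio to control was -4.36 (interval -4.38 to -4.34), and only 20 of the 2463 tested genes had a lower ratio. At 28 d the ratio was -1.31 and at 60 d -0.73, in each case below the median of all tested genes, -0.10 at both times.

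**Figure D1:**
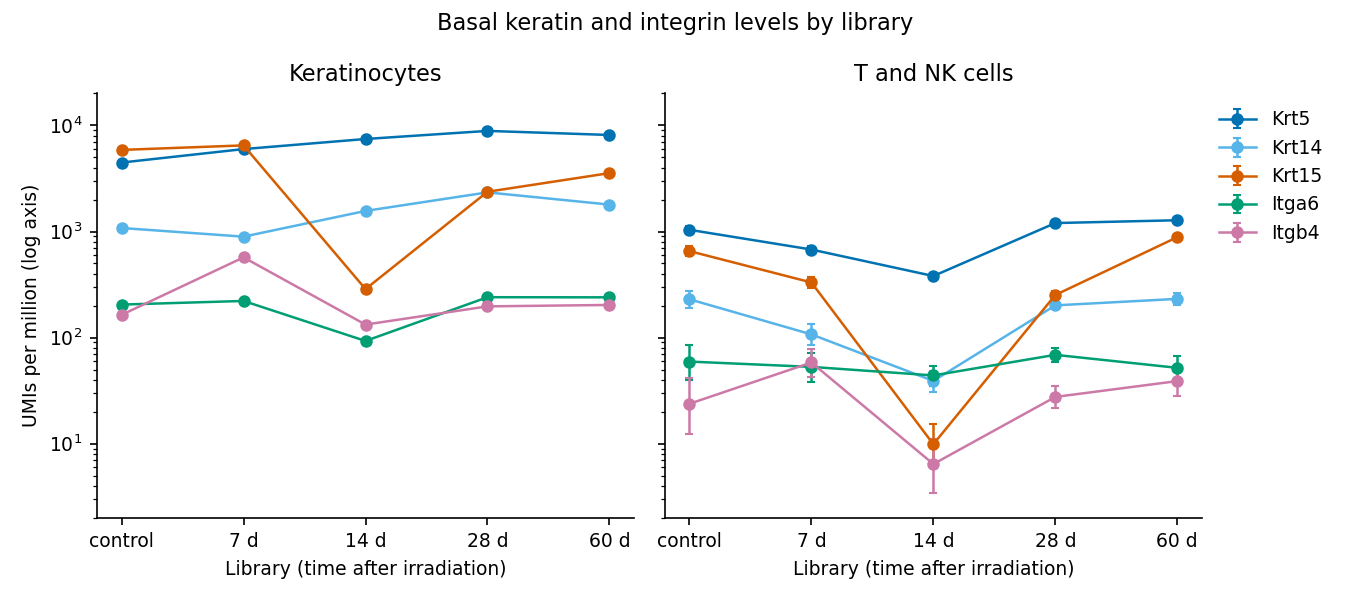
Levels of the 5 genes in keratinocytes (left) and in T and NK cells (right) of each library, in CPM on a log axis; points are sums over cells of 1 library, bars exact 95% Poisson intervals that are mostly smaller than the points. In keratinocytes Krt15 is at 287 CPM at 14 d, against 5880 CPM in control, while Krt5 is above its control level at each time.

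Itga6, the α6 chain, had 205 CPM in control keratinocytes, 222 after 7 d, 92.97 after 14 d, 240 after 28 d and 240 after 60 d. The 14 d library was the low one, and the other 3 irradiated libraries were at most 1.17-fold above control. The 7 d value was not separable from control by scaling, with a log2 ratio of 0.11 in CPM and -0.02 with median-of-ratios size factors. Itgb4, the β4 chain, had 164 CPM in control, 570 after 7 d, 133 after 14 d, 197 after 28 d and 203 after 60 d. Here the 7 d library stood apart from all others, and Itgb4 ranked 40th from the top of 2521 tested genes. At 14 d its log2 ratio to control was -0.30 in CPM and 0.09 with size factors, so it has no direction there. The 2 chains of 1 receptor therefore parted at 7 d: there were 2.57 Itgb4 UMIs for each Itga6 UMI at 7 d, against 0.8002 in control, and 1.43, 0.820 and 0.848 at 14, 28 and 60 d.

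Past 2-fold were 1 of the 5 genes at 7 d (Itgb4, higher), against 5.32% of tested genes higher, 3.13% lower and 8.45% either. At 14 d 2 of 5 were lower (Krt15 and Itga6), against 24% of tested genes lower, 8.93% higher and 32.9% either. At 28 d 1 was higher (Krt14, background 4.79%) and 1 lower (Krt15, background 9.28%), and at 60 d none was past 2-fold, with 2.01% of tested genes higher and 12.3% lower. Size factors in place of total UMIs would add 0.39 to each log2 ratio after 14 d, 0.18 after 28 d and 0.15 after 60 d, and take 0.13 from each after 7 d. With size factors Krt15 after 14 d was -3.97, and Itga6 after 14 d was -0.75 and thus no longer past 2-fold. Krt5 was then past 2-fold higher at 3 times, with 1.13 after 14 d, 1.17 after 28 d and 1.02 after 60 d. The background moved too: with size factors 19.2% of tested genes were higher and 15.3% lower after 14 d, 6.78% and 7.37% after 28 d, 3.06% and 9.22% after 60 d, and 4.13% and 3.85% after 7 d.

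The ratio of Krt15 to Krt5 plus Krt14 within the same cells does not depend on such scaling. It was 1.06 in control keratinocytes (interval 1.06 to 1.06), 0.942 after 7 d, 0.0318 after 14 d, 0.211 after 28 d and 0.358 after 60 d. It was thus lowest at 14 d, 33.3-fold below control, and at 28 and 60 d it was 5.02-fold and 2.96-fold below. Krt5 and Krt14 taken singly gave the same order of libraries at 14, 28 and 60 d: Krt15 was 34.2-fold lower relative to Krt5 and 29.7-fold lower relative to Krt14 at 14 d. At 7 d the 2 references pointed in opposite directions, with log2 ratios to control of -0.28 relative to Krt5 and 0.41 relative to Krt14.

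Within single cells, the Krt15 share of a cell's Krt5, Krt14 and Krt15 UMIs was taken where these summed to at least 20 UMIs, which held for 86.2% to 94.5% of keratinocytes. The median share was 52.3% after 7 d, 0% after 14 d, 8.33% after 28 d and 23.4% after 60 d, against 48.1% in control. Cells in which Krt15 made up over 50% of the 3 keratins were 10 of 1864 after 14 d (0.536%, interval 0.258% to 0.984%), 232 of 3812 after 28 d (6.09%) and 1089 of 6159 after 60 d (17.7%), against 1982 of 4193 in control (47.3%). At 7 d they were 862 of 1650 cells (52.2%), but that library also held more cells at the bottom of the scale, with 16.7% of cells at a share under 5%, against 4.29% in control. At 14 d 84.9% of cells were under 5%.

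**Figure D2:**
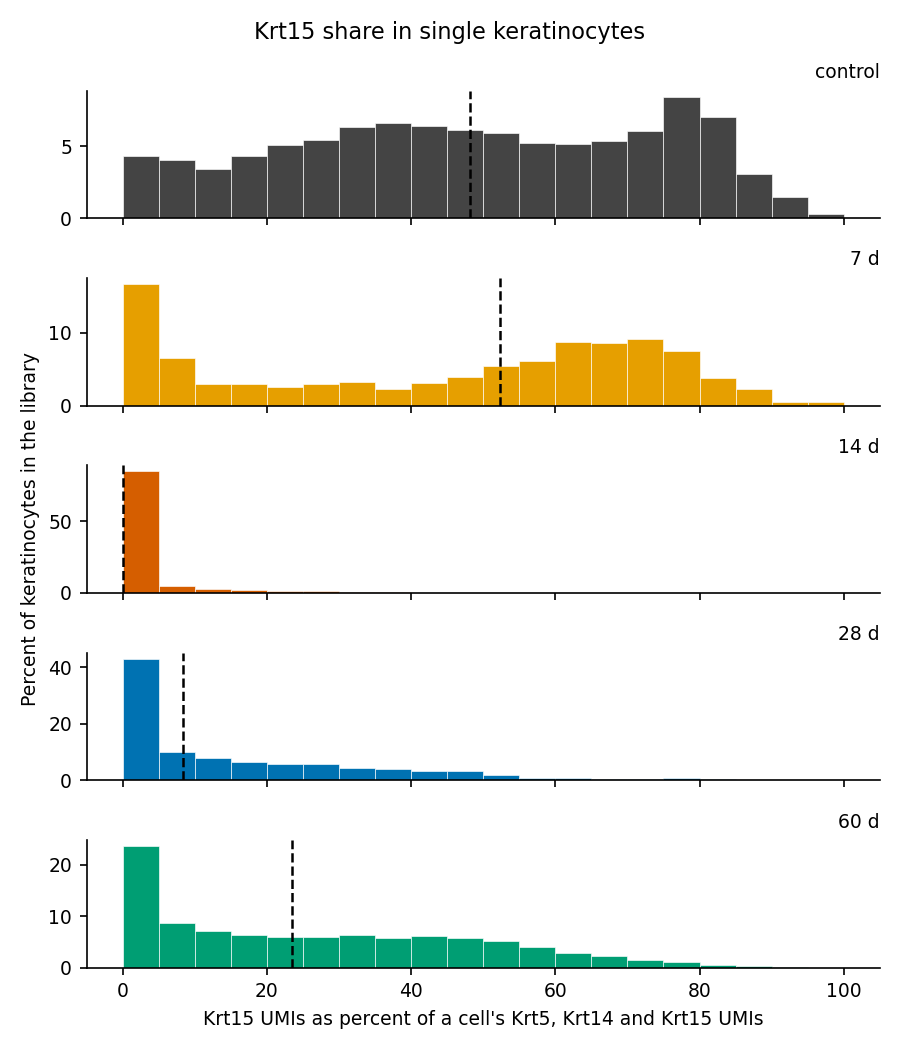
Histograms of the Krt15 share of a cell's Krt5, Krt14 and Krt15 UMIs (percent, in bins of 5) in keratinocytes with at least 20 such UMIs, 1 panel per library from control to 60 d; bars give the percent of that library's cells, dashed lines the median, and the vertical scales differ. The median is 48.1% in control, 52.3% at 7 d and 0% at 14 d, where 84.9% of cells are in the lowest bin.

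The 14 d keratinocytes had the most UMIs per cell of the 5 libraries. After each cell was thinned to 2000 UMIs, Krt15 was found in 20.2% of 1900 keratinocytes at 14 d, against 86.1% of 4653 in control, and without thinning in 35.5% against 97.0%. Krt5 was found in 96.3% of the thinned cells at 14 d, against 92.0% in control, and Krt14 in 84.6% against 66.0%. Shallower cells left out numbered 79 to 213 per library.

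Keratin UMIs also appeared in T and NK cells, which should lack them and were read as 1 measure of background. This level depended on the class: in control Krt5 had 1038 CPM in T and NK cells, against 151 CPM in fibroblasts. Krt15 had 654 CPM and 237 CPM in these classes. A Krt5 UMI was seen in 28.9% of 97 thinned control T and NK cells, so these UMIs were not spread evenly. The level subtracted below is therefore that of 1 class and may differ from the free RNA in keratinocytes. In T and NK cells Krt15 had 9.89 CPM at 14 d, against 654 CPM in control, and Krt5 had 381 CPM at 14 d, against 1038 CPM in control. In thinned T and NK cells a Krt15 UMI was seen in 1.51% of 397 cells at 14 d, against 38.1% of 97 cells in control, both below the keratinocytes of the same library. The median depth of T and NK cells was 3493 UMIs at 14 d, against 4163 UMIs in control. The ratio of Krt15 to Krt5 plus Krt14 in these cells was 0.422 after 7 d, 0.0236 after 14 d, 0.180 after 28 d and 0.586 after 60 d, against 0.516 in control. In fibroblasts it was 0.979 after 7 d, 0.0224 after 14 d, 0.291 after 28 d and 0.364 after 60 d, against 1.34 in control. The 14 d library was lowest in both classes, as it was in keratinocytes, with only 3 Krt15 UMIs in its 71 fibroblasts. With the T and NK cell level subtracted, the keratinocyte log2 ratio to control was -5.24 after 14 d, -2.50 after 28 d and -1.95 after 60 d.

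**Figure D3:**
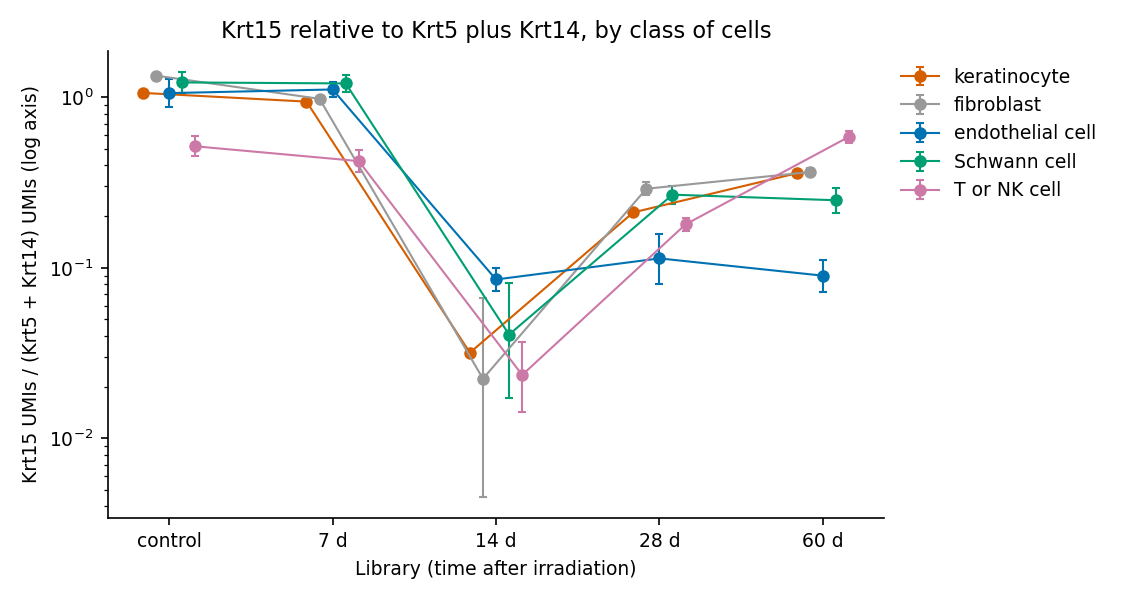
Krt15 UMIs divided by Krt5 plus Krt14 UMIs in 5 classes of cells in each library, on a log axis; bars are exact 95% binomial intervals and points of a library are shifted sideways to keep them apart. Keratinocytes stand at 0.0318 at 14 d, against 1.06 in control, and each of the other 4 classes is also below its control value at 14 d.

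Keratinocytes were clustered again into 21 sub-clusters, with the 5 genes and the hemidesmosome list kept out of the variable genes and the naming, and 41 sums of a sub-cluster in a library held at least 50 cells. Krt15 ranged more widely over these sums than Krt5 did. The highest Krt15 levels were in 2 sub-clusters with hair follicle markers from control skin: one led by Serpinb11 and Krt75 (118 cells) had 26870 CPM of Krt15 with 3837 CPM of Krt5 and 49.6 CPM of Krt14, and one led by Grem1 and Dkk3 (1071 cells) had 19782 CPM of Krt15 with 5533 CPM of Krt5 and 602 CPM of Krt14. These held 12.0% and 35.3% of the control library's keratinocyte Krt15 UMIs in 2.42% and 22.0% of its cells. Neither had 50 cells in another library.

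The 14 d keratinocytes lay mainly in a sub-cluster with wound markers, led by S100a8, S100a9, Car2 and Krt16, which held 72.1% of them. This sub-cluster raised 6 of 6 detected wound markers and also 8 of 8 detected proliferating markers. There Krt15 had 159 CPM, Krt5 7211 CPM and Krt14 1565 CPM. The same sub-cluster had 192 cells at 28 d, with 269 CPM of Krt15, 8871 CPM of Krt5 and 2366 CPM of Krt14, so it was low in Krt15 in both libraries. A sub-cluster led by Pdpn, Mmp13 and Ptgs2 held another 281 of the 14 d cells, and there Krt15 had 1012 CPM after 14 d, 3274 CPM after 28 d and 2250 CPM after 60 d beside 9945, 11690 and 9480 CPM of Krt5. Its 14 d cells were 13.7% of the library's keratinocytes and carried 35.5% of the Krt15 UMIs. In a suprabasal sub-cluster led by Serpinb12 and Krt10, where basal genes are known to decline, Krt15 had 16.2 CPM after 14 d, 152 CPM after 28 d and 86.9 CPM after 60 d, while Krt5 still had 3981, 4870 and 896 CPM. This sub-cluster raised 7 of 8 detected suprabasal markers and also 6 of 6 detected wound markers.

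Since control and irradiated libraries shared few sub-clusters, lower Krt15 over all keratinocytes and a change in the mix of sub-clusters cannot be told apart for most cells. Where a sub-cluster had at least 50 cells in both libraries, Krt15 was not always lower. In the sub-cluster led by Abi3bp and Enpp1 it had 5463 CPM at 60 d and 2791 CPM at 28 d, against 1660 CPM in control. These levels were 3.29-fold and 1.68-fold higher. The ratio of Krt15 to Krt5 plus Krt14 there was also higher, with 1.15 at 60 d and 0.662 at 28 d, against 0.571 in control. In a sub-cluster with hair follicle markers, led by Hmcn1 and Bgn, Krt15 had 5159 CPM at 60 d and 4161 CPM at 28 d, against 5026 CPM in control. The ratio there was lower, with 0.721 at 60 d and 0.516 at 28 d, against 1.10 in control. In a proliferating sub-cluster led by Stmn1 and Cenpf Krt15 had 4272 CPM at 60 d and 3916 CPM at 7 d, against 3960 CPM in control. The ratio was again lower, with 0.822 at 60 d and 0.685 at 7 d, against 1.11 in control. In a sub-cluster led by Krt25 and Slc39a10, Krt15 had 754 CPM at 28 d, against 608 CPM in control, with a ratio of 0.284, against 0.562 in control. Krt5 was higher after irradiation in each of these sums, for example 4459 CPM at 60 d in the proliferating sub-cluster, against 3032 CPM in control. With each library's sub-clusters weighted by the control mix, the log2 ratio of Krt15 to control was 0.60 after 28 d and 0.30 after 60 d, the reverse of the ratio over all keratinocytes, and that of Krt15 to Krt5 plus Krt14 was -0.28 after 28 d and -0.10 after 60 d. These weighted values used sub-clusters with at least 20 cells in both libraries, and rest on 17.4% of the 28 d cells and 39.2% of the 60 d cells. Much of their weight lies on few irradiated cells: a sub-cluster with 25.8% of the control cells had 23 cells at 28 d and 24 cells at 60 d, and one with 22.0% of the control cells had 27 cells at 28 d. A sub-cluster led by Col1a1 and Col3a1, with a median of 1395 UMIs and left without a name, was shared by all libraries, and there Krt15 had 2030 CPM after 7 d, 576 after 14 d, 1097 after 28 d and 2161 after 60 d, against 5926 CPM in control. The ratio in this sub-cluster was 0.330 after 7 d, 0.0568 after 14 d, 0.178 after 28 d and 0.286 after 60 d, against 1.81 in control. This was the 1 sub-cluster shared at 14 d and covered 5.48% of the 14 d cells.

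Restricting the comparison to keratinocytes with under 1000 CPM of the suprabasal keratins Krt1 and Krt10 together, a cut chosen after the values were seen, left 724 cells at 14 d and 3330 cells in control. Among these, Krt15 had 831 CPM after 14 d, 3782 after 28 d and 4478 after 60 d, against 7580 CPM in control, and Krt5 had 9290 CPM after 14 d, 10014 after 28 d and 8857 after 60 d, against 4212 CPM in control. The low Itga6 of 14 d keratinocytes was much smaller in these cells, with 202 CPM at 14 d, against 228 CPM in control. Itgb4 in them had 283 CPM at 14 d, against 186 CPM in control, and 603 CPM at 7 d.

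**Figure D4:**
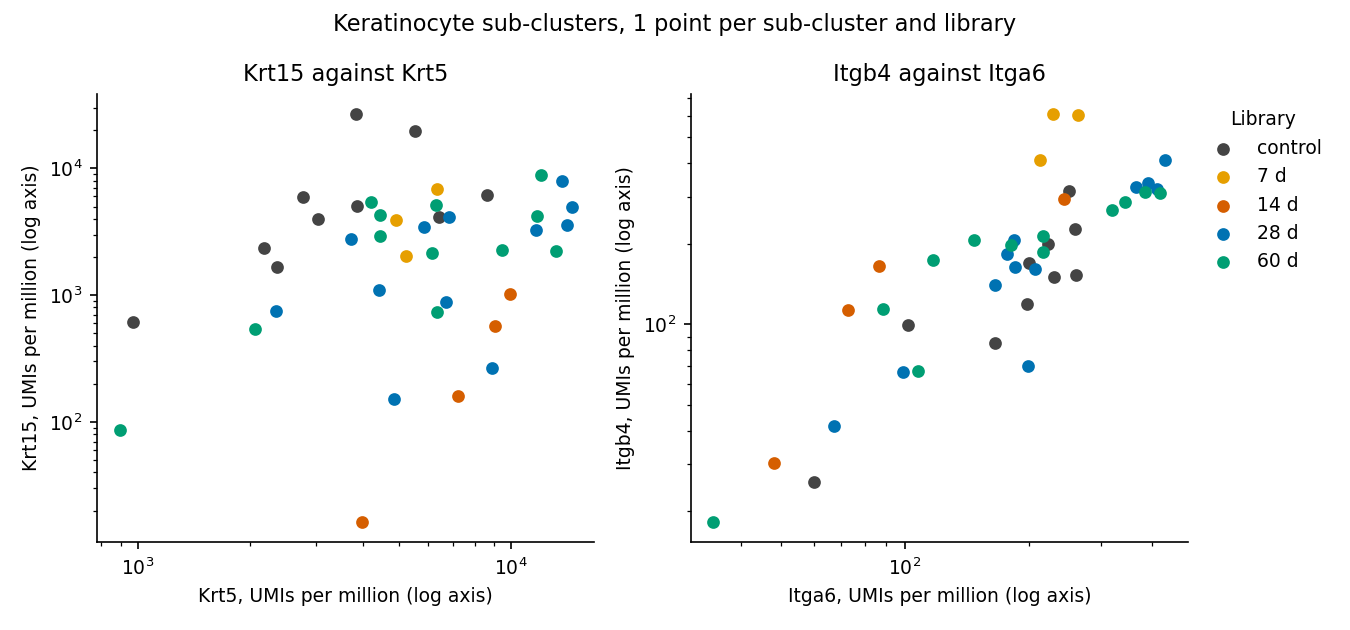
Krt15 against Krt5 (left) and Itgb4 against Itga6 (right) in keratinocyte sub-clusters, in CPM on log axes, 1 point per sub-cluster and library with at least 50 cells (41 points), coloured by library. The 14 d points lie low in Krt15 at Krt5 levels like those of other libraries, and 2 of the 3 points of the 7 d library lie highest in Itgb4.

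The 2 integrin chains varied together over sub-clusters, apart from the 7 d library. Over the 41 sums the Pearson correlation of log2(CPM + 10) was 0.84 between Itga6 and Itgb4, 0.75 between Krt14 and Krt5, 0.30 between Krt15 and Krt5 and -0.14 between Krt15 and Krt14. These are descriptions, since the sums share libraries, depth and the clusters' definitions. Itga6 was high in sums rich in Krt5, for example 410 CPM at 28 d in a proliferating sub-cluster led by Hist1h1b. It was lowest, at 34.2 CPM, in the Serpinb12-led suprabasal cells of 60 d, where Itgb4 had 18.3 CPM. Itgb4 in the 3 sums of 7 d was 611, 607 and 411 CPM, and the first and second of these were above the sums of all other libraries. In the proliferating sub-cluster led by Stmn1 it was 607 CPM at 7 d, against 150 CPM in control, and Itga6 there was 264 CPM at 7 d, against 231 CPM in control. The main sub-cluster of 7 d, with hair follicle markers and led by S100a4, Krt24, Aebp1, Pln and Ccl21, came almost wholly from that library (97.7% of its cells). It held 81.3% of the 7 d keratinocytes and 84.6% of their Itgb4 UMIs, and had 17 cells in control. For most 7 d cells, higher Itgb4 and a change in the mix of sub-clusters therefore cannot be told apart.

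Outside keratinocytes the integrin chains were read in Schwann cells, the glia of nerve, and in endothelial cells. Itgb4 in Schwann cells had 410 CPM after 7 d, 398 after 14 d, 495 after 28 d and 267 after 60 d, against 357 CPM in control, and Itga6 had 209 CPM after 7 d, 314 after 14 d, 337 after 28 d and 213 after 60 d, against 214 CPM in control. Neither gene was past 2-fold there. In endothelial cells Itgb4 had 287 CPM after 7 d, 210 after 14 d, 268 after 28 d and 205 after 60 d, against 99.7 CPM in control. These were 2.88-fold, 2.10-fold, 2.69-fold and 2.06-fold above control. The intervals at 14 d (1.69 to 2.63) and 60 d (1.54 to 2.75) reached below 2-fold. No share of all genes past 2-fold was computed outside keratinocytes. An endothelial cluster led by Ccl21 and Lyve1 drew 58.5% of its cells from 7 d, and its part in these values was not tested. Krt5, which endothelial cells should lack, had 171 CPM in them after 7 d, 1231 after 14 d, 636 after 28 d and 2190 after 60 d, against 175 CPM in control, so it was higher with Itgb4 at the 3 later times but not at 7 d, and its part in the Itgb4 values was not tested. Itga6 in endothelial cells had 128 CPM after 7 d, 119 after 14 d, 275 after 28 d and 205 after 60 d, against 150 CPM in control. Higher Itgb4 at 7 d was also read outside keratinocytes. It was 2.88-fold above control in endothelial cells, 2.45-fold in T and NK cells and 2.25-fold in mast cells (interval 1.08 to 5.27). In mononuclear phagocytes it was 2.15-fold and in fibroblasts 1.67-fold above control. In skeletal muscle cells Itgb4 had 12 UMIs at 7 d, against 4 UMIs in control, before scaling to depth. It was 1.19-fold above control in mural cells and 1.15-fold in Schwann cells, with intervals that reached 1, and 0.658 of control in neutrophils, on 5 UMIs at 7 d, against 9 UMIs in control. The counts behind these are small outside keratinocytes and endothelial cells, for example 44 UMIs in T and NK cells at 7 d, against 12 UMIs in control, and the part of free RNA in them was not tested.

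**Figure D5:**
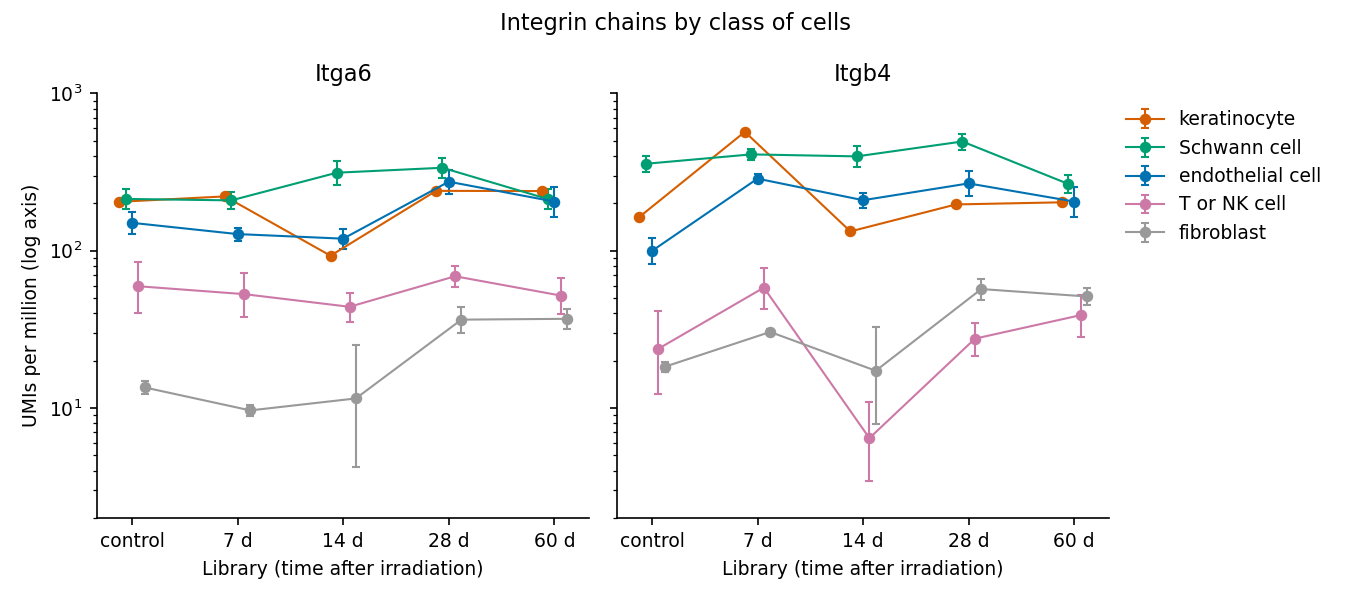
Itga6 (left) and Itgb4 (right) in 5 classes of cells in each library, in CPM on a log axis, with exact 95% Poisson intervals as bars. Keratinocytes, Schwann cells and endothelial cells lie above T and NK cells and fibroblasts, and Itgb4 of keratinocytes is 570 CPM at 7 d, against 164 CPM in control.

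Among genes that work beside the 5, a list of 18 for the hemidesmosome, its laminin ligand, other integrins and their link to the cytoskeleton was read, of which 17 were found. At 14 d 5 of the 8 tested list genes were past 2-fold lower and none higher, beside 24% of all tested genes lower, with a median log2 ratio of -1.20, against -0.16 over all tested genes. With size factors 3 of the 8 were, beside 15.3% of all tested genes, as Plec (-0.73) and Tln1 (-0.88) came within 2-fold. Col17a1, the transmembrane collagen of the hemidesmosome, had 151 CPM at 14 d, against 493 CPM in control. Dst, whose epithelial form is the plaque protein BPAG1e, had 20.8 CPM at 14 d, against 64.9 CPM in control, and Plec, the plectin that links the plaque to keratin, had 106 CPM at 14 d, against 230 CPM in control. Col7a1, the collagen of anchoring fibrils, had 13.3 CPM at 14 d, against 72.3 CPM in control, and Tln1, the integrin activator talin, had 29.4 CPM at 14 d, against 71.2 CPM in control. The laminin chain Lamb3 was within 2-fold, with 82.7 CPM at 14 d, against 99.9 CPM in control.

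At 7 d 1 of 9 tested list genes was past 2-fold, beside 8.45% of all tested genes. The median log2 ratio of the list was 0.47, against 0.09 over all tested genes, with 8 list genes above 0 and 1 below. The list gene past 2-fold at 7 d was the integrin chain Itgb6, with 125 CPM at 7 d, against 41.1 CPM in control. Its control level was below the filter for tested genes, so Itgb6 was tested at 7 d only through its high 7 d value. At 14, 28 and 60 d Itgb6 was not tested, and it was 7.39-fold, 2.01-fold and 1.72-fold lower than in control. The other 8 tested list genes were within 2-fold at 7 d. Col17a1 was 507 CPM at 7 d, Plec 382 CPM and Dst 101.4 CPM, each within 2-fold of control. At 28 and 60 d none of the 8 tested list genes was past 2-fold, beside 14.1% and 14.3% of all tested genes, with median log2 ratios of 0.03 and -0.01, against -0.10 over all tested genes at both times. Col17a1 then had 527 CPM at 28 d and 715 CPM at 60 d. Cd151, a tetraspanin partner of laminin-binding integrins, was under 0.11 CPM in keratinocytes of each library and was not tested.

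By the likeness of their levels over the 41 sums, among 2520 genes, the nearest genes to Krt5 were LOC102551453 (r = 0.90), Krt17 (0.83) and Tgfbi (0.81), and those to Krt14 were Krt17 (0.87), Tgfbi (0.85) and Sytl1 (0.84). Those to Krt15 were Golim4 (0.85), AABR07021544.1 (0.82) and Junb (0.81), none of them shared with Krt5 or Krt14. For Itga6 they were Col17a1 (0.92), Lamb3 (0.88) and Itgb1 (0.86), and for Itgb4 Lamb3 (0.90), Itga3 (0.86) and Cavin3 (0.86).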

How the data were processed

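The authors deposited raw UMI counts, not normalized, per gene and barcode of 5 libraries of Single Cell 3′ chemistry. The submitters' processing notes name Cell Ranger 5.0.0, STAR, Seurat 3.1.1 and the build Rnor_6.0. All columns were used (0 left out). Rows sharing a symbol were summed.

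Barcodes needed 500 or more UMIs, 300 or more genes and no more than 20% mitochondrial UMIs. Doublets were scored against simulated ones; the library's own threshold called under 0.5% of barcodes at 7 d and 60 d, so the median threshold of the other libraries was used there, and 1.05% to 1.93% of barcodes were removed. Log values of counts per 10000 UMIs of a cell, with 3000 variable genes, 40 principal components and 20 neighbours gave Leiden clusters at resolution 1 without batch integration. Keratinocytes were clustered again with 2000 variable genes, 30 components and resolution 0.8. Of 152 marker symbols 141 were found. The naming rules were adjusted after the clusters were seen: a name needed at least 3 raised markers (log2 ratio of at least 1, in at least 10% of cells and at 10% or more of the highest cluster's level), and 3 clusters and 7 sub-clusters stayed unnamed.

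The genes, lists and comparisons were chosen with earlier results of these data known. Named genes are the 5 members, list genes past 2-fold or of the hemidesmosome, the 3 nearest genes per member and the leading genes of sub-clusters. Intervals were tested on simulated data. Alternatives covered filters, doublets, resolution, variable genes, weighting, thinning, single-library clusters, the sub-cluster mix, free RNA and scaling. Python 3.11.15, scipy 1.17.1, igraph 0.11.9 and leidenalg 0.10.2 were used. Some list genes and leading genes of sub-clusters are not reported here.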

Additional observations from a re-analysis of the deposited data

Results flagged for a closer look

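In several cases the log2 ratio to control had the opposite sign in 1 group of cells from that in all keratinocytes of the same library, with neither counting interval reaching 0. None of these differences was tested, since each group is 1 library. Krt15 at 60 d was 1.72 in the sub-cluster led by Abi3bp and Enpp1 and 0.11 in the proliferating one led by Stmn1, against -0.73 in all keratinocytes. Krt15 at 28 d was 0.75 in the sub-cluster led by Abi3bp and 0.31 in the one led by Krt25, against -1.31 in all keratinocytes. Krt15 at 7 d was -1.55 in the collagen-led sub-cluster with few UMIs, against 0.14 in all keratinocytes. Itga6 at 60 d was -1.15 in the follicle sub-cluster led by Hmcn1 and Bgn (58 cells at 60 d), against 0.23 in all keratinocytes. It was also below 0 in the sub-cluster led by Abi3bp and Enpp1 (-0.60) and the proliferating one led by Stmn1 (-0.35). In the collagen-led sub-cluster it was 1.09.

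Among other classes, Itga6 at 14 d was 0.55 in Schwann cells, against -1.14 in keratinocytes. Itgb4 at 60 d was -0.42 in Schwann cells, against 0.31 in keratinocytes, and at 14 d it was 1.07 in endothelial cells, against -0.30 in keratinocytes.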

How the results depend on the processing

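All values here are log2 ratios to control. The lower Krt15 relative to Krt5 plus Krt14 at 14, 28 and 60 d kept its direction under all alternatives run, but its size did not. The higher Itgb4 at 7 d lay between 0.57 and 1.87 over 14 settings, above control in each but not past 2-fold in all. With sub-clusters weighted by the control mix, Krt15 over Krt5 plus Krt14 was -0.041, -5.00, -0.28 and -0.10 at 7, 14, 28 and 60 d. Under the same mix Krt15 was -0.0026 at 7 d, 0.60 at 28 d and 0.30 at 60 d, Krt15 over Krt14 was 0.38 at 28 d and 0.17 at 60 d, Itga6 was -0.046 at 7 d and -0.43 at 60 d, and Itgb4 was 0.73 at 14 d. With sub-clusters at resolution 0.4, this mix gave 0.10, -2.18, -0.10 and -0.11 at 7, 14, 28 and 60 d for Krt15 over Krt5 plus Krt14, 0.013 at 7 d for Krt15 over Krt5, 0.58 at 28 d and 0.16 at 60 d for Krt15 over Krt14, 0.84 at 28 d and 0.23 at 60 d for Krt15, -0.58 at 7 d, 0.22 at 14 d and -0.22 at 60 d for Itga6, and 0.60 at 14 d for Itgb4. It rests on 16.9% to 71.9% of the irradiated cells, and at 14 d on sub-clusters with 7.11% of the control cells.

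Without clusters mostly of 1 library, Krt15 over Krt5 plus Krt14 was -0.43, -4.16, -2.71 and -2.18 at 7, 14, 28 and 60 d, Krt15 was -0.0039 at 7 d, Itga6 -0.16 at 60 d, and Itgb4 0.38 at 14 d and -0.15 at 60 d. In the same order of times the ratio was -0.27, -5.24, -2.50 and -1.95 after subtraction of the T and NK cell level, and -0.10, -5.10, -2.45 and -1.63 as a mean over cells. Thinning gave -0.10 at 7 d, -2.48 at 28 d and -1.61 at 60 d, and the strict filter -2.34 at 28 d and -1.58 at 60 d. Size factors reversed Itga6 at 7 d (-0.017) and Itgb4 at 14 d (0.088). The following 2 alternatives were chosen after seeing the data. Keratinocytes low in Krt1 and Krt10 gave -0.63, -4.33, -2.27 and -1.84 at 7, 14, 28 and 60 d, with Krt15 over Krt14 at -0.34, Krt14 at 0.22 and Krt15 at -0.12 at 7 d, and Itgb4 at 0.60 at 14 d. Without the collagen-led sub-cluster the ratio was -0.13 at 7 d, -2.32 at 28 d and -1.56 at 60 d. The cause of these shifts was not tested. No paired analysis was possible because each group is 1 library. Depth limits the sums outside keratinocytes most, where some rest on under 50 UMIs.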
